A study of Mus musculus with 7 samples.

Results

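The genes described here make amino acids, carry one-carbon units on folate, or move amino acids across membranes. They are 34 genes chosen by symbol, and each stood in the deposited table of 49382 genes. By role, 5 belong to serine and glycine synthesis, 6 to the folate cycle, 4 to proline and asparagine, 4 to transsulfuration and the methionine cycle and 13 are transporters. The rule that gave the list names no group for the remaining 2, the branched-chain transaminases, which are described on their own. Their expression was measured by RNA-seq in mouse embryonic fibroblasts (MEFs), primary connective tissue cells grown out of wild-type embryos of stage E13.5 to E14.4 with the head and fetal liver removed, and used at passages 3 to 7. There were 7 libraries, 1 from control cells and 1 from each of 6 conditions. Oxidative stress was 10 μM sodium arsenite (NaAsO2) for 3 hours, and osmotic stress was 100 mM added NaCl for 3 hours. ER stress was 1 μM thapsigargin, which blocks the calcium pump of the endoplasmic reticulum (ER), for 10 hours. Medium without glucose, medium without glutamine, and hypoxia at 0.1% oxygen were each applied for 10 hours as well. All cells were expanded in DMEM with 2 mM L-glutamine and 10% serum, and no library was labelled as a control for the time or the vehicle of a treatment.

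Most of these enzymes feed on the same few intermediates. Serine is built from an intermediate of glycolysis, and its conversion to glycine hands a one-carbon unit to folate, in parallel pathways in the cytosol and in mitochondria. Asparagine and proline are built from aspartate, glutamine and glutamate, and cysteine from methionine and serine by transsulfuration. Many of the genes are textbook targets of ATF4, the transcription factor that is translated when cells lack an amino acid or accumulate unfolded protein in the ER.

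Levels are given in TPM, a share of each library scaled to 1000000 that is corrected for transcript length, so levels of different genes can be set side by side. Changes are differences of log2(TPM + 1) against the control library, on which the added 1 TPM pulls the change of weakly expressed genes toward 0. A gene was counted as risen or fallen when it passed 2-fold on that scale. Counts were taken over genes that averaged 2 TPM or more across the 7 libraries, which kept 32 of the 34 members and 12909 genes in all. The 2 others, Prodh and Cbs, are given by their values. Each condition had 1 library, so there was no replicate error to hold a difference against, no p-value is given, and TPM does not tell how deeply a library was sequenced. Over the 12909 genes, the median log2 change was -0.16 for oxidative stress, -0.12 for osmotic stress and within 0.1 of 0 for the remaining conditions. The 6 fibroblast markers read as a check of the cell type summed to 8737 TPM in hypoxia and to 4155 TPM in ER stress, the highest and the lowest sum, with Col3a1 at 352 TPM in ER stress against 1479 TPM in the control. The 5 leukocyte markers summed to between 6.76 and 13.7 TPM, most of it Cd68, with Ptprc at or below 0.280 TPM. Endothelial, epithelial and erythroid markers summed to at most 5.37, 1.08 and 0.787 TPM, and 3 muscle markers to between 13.7 TPM in ER stress and 36.2 TPM in oxidative stress, nearly all of it Des. In bulk RNA, fewer cells of a type and less RNA per cell cannot be told apart, and the part of the marker changes in the results below was not tested.

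Most members rose in ER stress and stood near their control level elsewhere. In ER stress, 18 of the 32 members rose by more than 2-fold, 56.2% against 8.6% of all 12909 genes. There 2 fell, 6.25% against 11.0% of all genes. The list was chosen with earlier results of these data known, so part of this excess may come from the choice. The median of the members was 1.09, against 0.00 for all genes. Together the 34 members took 2028 TPM of the control library and 5767 TPM of the ER stress library, and between 1824 and 2272 TPM of the others. The ER stress library held the highest level of 22 of the 32 members, which the rises there largely entail. Among the 22 is Slc43a1, with 4.89 TPM in ER stress and between 1.07 and 2.68 TPM elsewhere. It passed the filter of 2 TPM only through its ER stress level, so its place in this count carries no weight. No member passed 2-fold in oxidative stress, where 3.94% of all genes rose and 4.85% fell, or in osmotic stress, where 3.08% rose and 8.76% fell. In glucose depletion no member rose, where 1.83% of all genes did, and 1 fell, 3.12% against 2.41%. In glutamine depletion 1 rose, 3.12% against 3.21% of all genes, and 0 fell, where 3.21% of all genes did. In hypoxia 2 rose, 6.25% against 3.57%, and 2 fell, 6.25% against 2.64%. The shares in glucose and glutamine depletion rest on 1 gene each, lie near those of all genes and are no result about the members. Those in hypoxia rest on 2 genes each, and both counts became 1 with the median of the other 6 libraries as the reference. They too are no result about the members as a set.

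**Figure D1:**
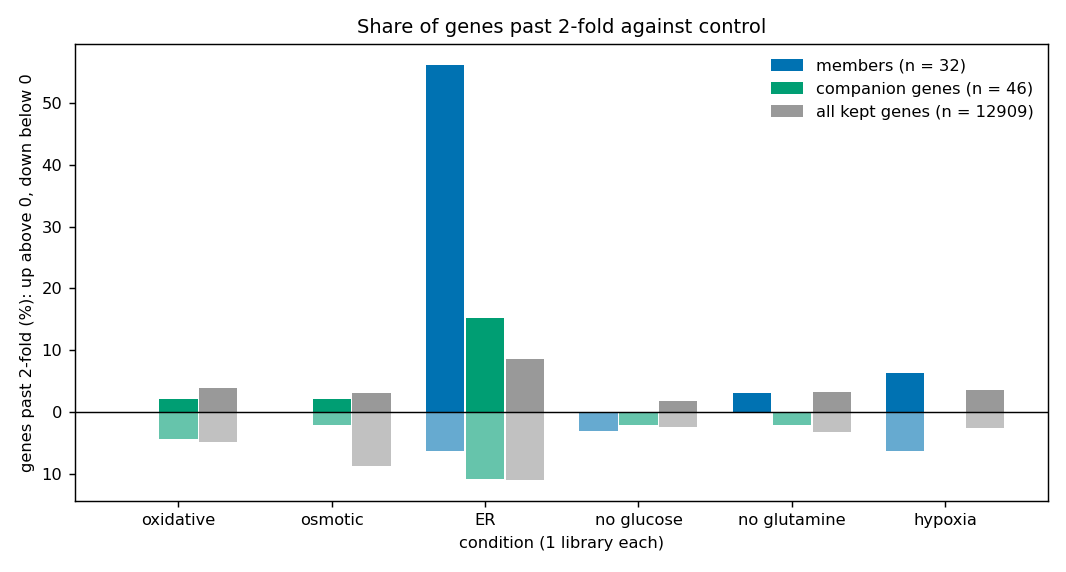
Share of genes (%, vertical axis) that passed 2-fold against the control library in each of the 6 conditions (horizontal axis, 1 library each), with risen genes drawn above 0 and fallen genes below, for the 32 kept members, 46 companion genes of the same pathways and all 12909 kept genes. In ER stress 56.2% of members rose, against 15.2% of companion genes and 8.6% of all genes, while in the other 5 conditions no bar of the members passes 6.25%.

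Of the 32 members, 22 passed 2-fold in at least 1 condition, 16 of them in ER stress alone, 2 in hypoxia alone and 4 in 2 conditions. These 4 were Mthfd1l and Aldh1l2, which rose in ER stress and hypoxia, Aldh1l1, which fell in ER stress and glucose depletion, and Slc7a1, which rose in ER stress and glutamine depletion. The other 10 passed it nowhere, namely Phgdh, Psat1, Shmt1, Mthfd1, Mthfd2l, Pycr1, Ahcy, Slc36a1, Slc36a4 and Slc43a1. The members closest to the 2-fold line on its inner side were Phgdh at 0.96 in ER stress and Mat2a at 0.96 in oxidative stress, and the closest on its outer side was Aldh1l2 at 1.02 in hypoxia.

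**Figure D2:**
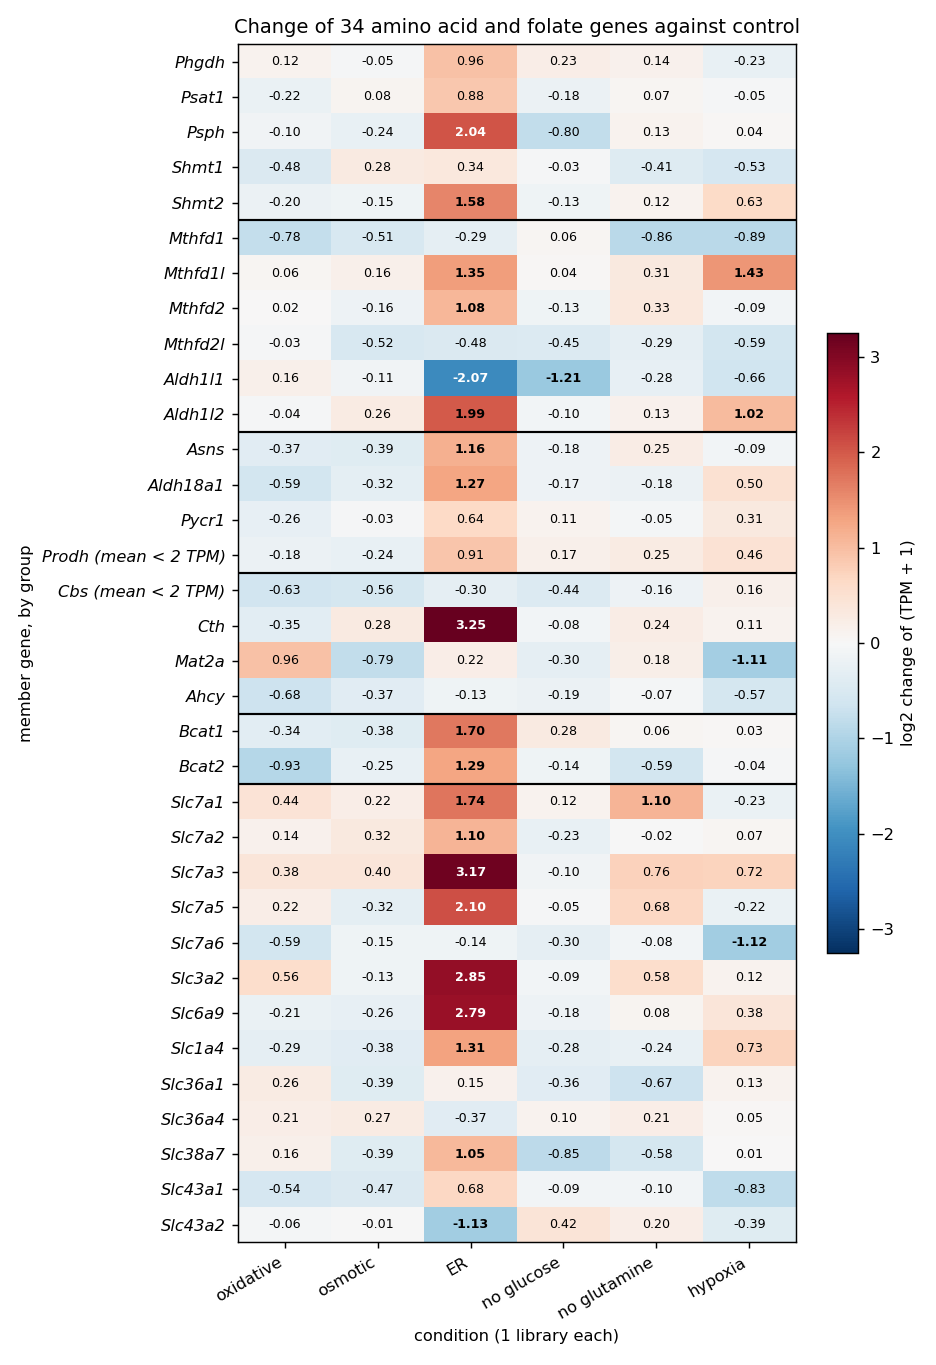
Change of each of the 34 members (rows) in each condition (columns, 1 library each) as the difference of log2(TPM + 1) from the control library, in colour and as a number, bold past 2-fold. Black lines part, from the top, serine and glycine, folate cycle, proline and asparagine, transsulfuration and methionine cycle, branched-chain transaminases and transporters. The ER stress column runs from -2.07 for Aldh1l1 to 3.25 for Cth, and no other column reaches beyond 1.43.

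The serine pathway begins with Phgdh, the enzyme that commits 3-phosphoglycerate to serine, followed by the transaminase Psat1 and the phosphatase Psph. In ER stress all 5 members of the group were above the control. Of these, 2 passed 2-fold (40.0%, against 8.6% of all genes), Psph and the mitochondrial hydroxymethyltransferase Shmt2. Phgdh was the most abundant member of the list in the control, with 357 TPM in the control library, 389 in oxidative stress, 345 in osmotic stress, 418 in glucose depletion, 394 in glutamine depletion, 304 in hypoxia and 694 in ER stress. Psat1 had 230.0 TPM in the control library, 197 in oxidative stress, 243 in osmotic stress, 203 in glucose depletion, 242 in glutamine depletion, 223 in hypoxia and 425 in ER stress. Both were highest in ER stress, at 0.96 and 0.88 on the log2 scale, just short of 2-fold, and the other 6 libraries lay between 304 and 418 TPM for Phgdh and between 197 and 243 TPM for Psat1.

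Psph, which releases serine from phosphoserine, stood apart from the steps before it. Its levels were 41.4 TPM in the control library, 38.4 in oxidative stress, 34.8 in osmotic stress, 23.3 in glucose depletion, 45.3 in glutamine depletion, 42.4 in hypoxia and 173 in ER stress. It rose by 2.04 in ER stress, the largest change of the group, and its level in glucose depletion was the lowest of the 7, with a log2 change of -0.80 that did not pass 2-fold. In glucose depletion Phgdh, whose substrate comes from glycolysis, was at 0.23 and Psat1 at -0.18. Summed over the group, the level went from 768 TPM to 1682 TPM in ER stress and lay between 743 and 826 TPM in the other 5 libraries.

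The folate enzymes were also read by compartment, a grouping made after the values were seen, and the ranges of both compartments overlapped in ER stress and in hypoxia. The mitochondrial genes are Shmt2, which takes a one-carbon unit from serine, Mthfd2 and Mthfd2l, which oxidise it, Mthfd1l, which releases it as formate, and Aldh1l2, which burns it to carbon dioxide with a gain of NADPH. Their cytosolic counterparts are Shmt1, the trifunctional Mthfd1 and Aldh1l1. In ER stress, where 8.6% of all genes rose and 11.0% fell, 4 of the 5 mitochondrial genes rose by more than 2-fold, with Mthfd2l at -0.48. Of the 3 cytosolic genes none rose there, Aldh1l1 fell, Mthfd1 was at -0.29 and Shmt1 at 0.34. In hypoxia, where 3.57% of all genes rose, 2 of the 5 mitochondrial genes rose. Shmt2 was at 0.63 in hypoxia, Mthfd2 at -0.09 and Mthfd2l at -0.59. All 3 cytosolic genes were below the control there without passing 2-fold, with Shmt1 at -0.53. In glutamine depletion 4 of the 5 mitochondrial genes were above the control and 0 of the 3 cytosolic genes were, and none passed 2-fold. The mitochondrial genes summed to 293 TPM in the control, 802 TPM in ER stress, 431 TPM in hypoxia, 334 TPM in glutamine depletion and between 268 and 278 TPM in the other 3 libraries. The cytosolic genes summed to 70.0 TPM in the control, 60.1 TPM in ER stress, 39.9 TPM in hypoxia, 42.9 TPM in glutamine depletion and between 46.2 and 67.2 TPM in the other 3.

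**Figure D3:**
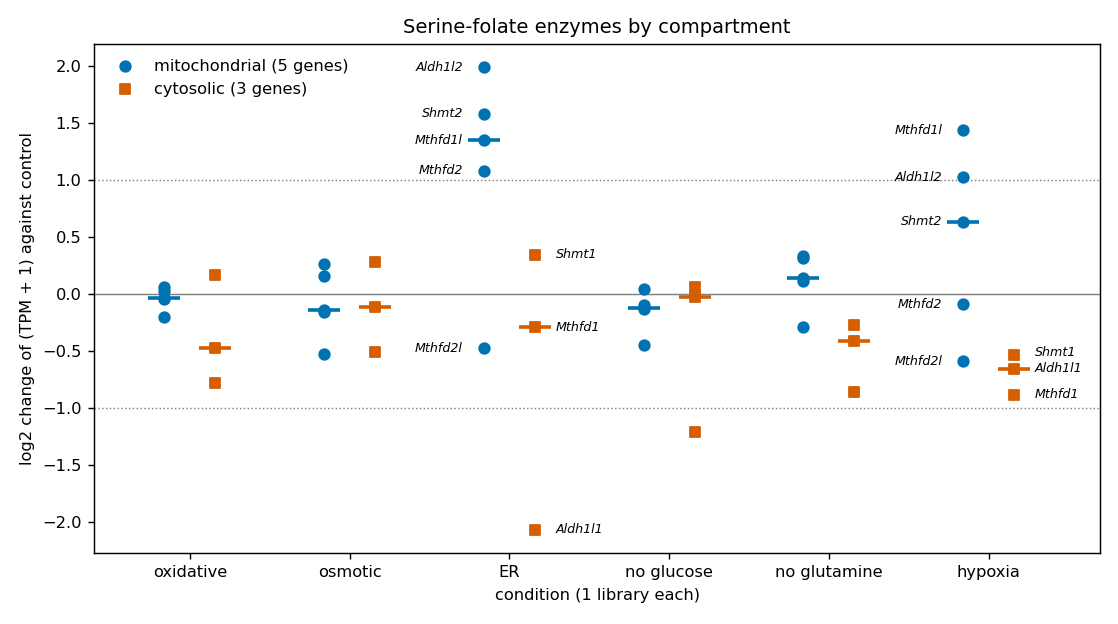
Change of 5 mitochondrial (blue circles) and 3 cytosolic (orange squares) enzymes of the serine-folate pathway against the control, as the difference of log2(TPM + 1) on the vertical axis, in each condition on the horizontal axis (1 library each). Short bars are medians over the genes and dotted lines mark 2-fold. For mitochondrial and cytosolic genes the medians were 1.35 and -0.29 in ER stress, 0.63 and -0.66 in hypoxia, 0.13 and -0.41 in glutamine depletion, -0.13 and -0.03 in glucose depletion, -0.15 and -0.11 for osmotic stress and -0.03 and -0.48 for oxidative stress, and single genes of both compartments overlap.

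Among the mitochondrial genes, Mthfd1l, on chromosome 10 from 3973118 to 4167081 (GRCm38, as all positions here), was the one with its highest level in hypoxia, with 20.4 TPM in the control library, 21.3 in oxidative stress, 22.8 in osmotic stress, 21.02 in glucose depletion, 25.5 in glutamine depletion, 56.6 in hypoxia and 53.3 in ER stress. The hypoxia and ER stress libraries stood alone, with the other 5 between 20.4 and 25.5 TPM, and the log2 changes were 1.43 and 1.35. Aldh1l2 had 42.9 TPM in the control library, 41.6 in oxidative stress, 51.6 in osmotic stress, 40.0 in glucose depletion, 47.1 in glutamine depletion, 88.1 in hypoxia and 173 in ER stress. It rose in both conditions as well, by 1.99 in ER stress and, only just past 2-fold, by 1.02 in hypoxia, where it was 0.96 with a pseudocount of 5 TPM.

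Shmt2 reached 369 TPM in ER stress and 191 TPM in hypoxia, from 123 TPM in the control, with the other 4 libraries between 107 and 133 TPM. Mthfd2, known for its expression in embryonic and dividing cells, went from 92.9 TPM to 197 TPM in ER stress (1.08) and was at 87.2 TPM in hypoxia. Its relative Mthfd2l was lower, at 13.46 TPM in the control, and between 8.59 and 13.1 TPM in the 6 conditions. The ratio of Mthfd2 to Mthfd2l was 6.90 in the control, 21.03 in ER stress and between 7.203 and 10.8 in the other 5 libraries.

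In the cytosol, Shmt1 ran from 11.4 TPM in hypoxia to 21.7 TPM in ER stress, with 16.9 TPM in the control. Mthfd1, which carries 3 steps of the cytosolic route on 1 protein, had 46.2 TPM in the control library, 26.5 in oxidative stress, 32.0 in osmotic stress, 48.2 in glucose depletion, 24.9 in glutamine depletion, 24.5 in hypoxia and 37.5 in ER stress. Control and glucose depletion were the 2 highest, and its changes in glutamine depletion (-0.86), hypoxia (-0.89) and oxidative stress (-0.78) did not pass 2-fold. The ratio of Mthfd1l to Mthfd1, the 2 genes that interconvert formate and its folate form in mitochondria and cytosol, was 0.442 in the control and 0.436 in glucose depletion. It was higher in the other 5 conditions, at 2.31 in hypoxia, 1.42 in ER stress, 1.02 in glutamine depletion, 0.804 in oxidative stress and 0.713 in osmotic stress. Aldh1l1 was low throughout, with 6.92 TPM in the control library, 7.88 in oxidative stress, 6.33 in osmotic stress, 2.43 in glucose depletion, 5.54 in glutamine depletion, 4.03 in hypoxia and 0.890 in ER stress. It fell in ER stress (-2.07) and glucose depletion (-1.21), and with a pseudocount of 5 TPM the change in glucose depletion was -0.68 and no longer past 2-fold.

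Asns, the glutamine-dependent synthase of asparagine on chromosome 6 from 7675169 to 7693254, is the usual reporter of amino acid shortage in mammalian cells. Its levels were 141 TPM in the control library, 109 in oxidative stress, 108 in osmotic stress, 125 in glucose depletion, 168 in glutamine depletion, 132 in hypoxia and 317 in ER stress. ER stress was highest and passed 2-fold (1.16), and glutamine depletion, which takes away the nitrogen donor of the enzyme, was second with 0.25. The other 4 conditions lay below the control, down to -0.39 in osmotic stress.

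Asns is also 1 of the 3 members whose promoter held the core of the C/EBP-ATF response element, the short sequence that ATF4 binds together with C/EBP proteins. The search used TGATGNAA on both strands of the 300 bases from 250 before to 50 after each gene start, in the RefSeq promoters of GRCm38.p6. These were present for 29 of the 34 members, and 3 of the 29 (10.3%) held a match, against 4.51% of all 27025 genes. By promoter the shares were 3 of 37 (8.11%) and 3.97% of 32851. The other 2 members with a match were Pycr1 and Slc1a4. The stretches are printed here in the direction of the gene, with the matched bases in capitals, because they show where the element lies in genes that differ in their change in ER stress. A match is a match of letters and was not tested for binding.

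Asns, chr6:7693225-7693309, minus strand: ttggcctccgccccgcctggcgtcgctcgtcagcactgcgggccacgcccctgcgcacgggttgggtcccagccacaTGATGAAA
Pycr1, chr11:120643749-120643871, minus strand: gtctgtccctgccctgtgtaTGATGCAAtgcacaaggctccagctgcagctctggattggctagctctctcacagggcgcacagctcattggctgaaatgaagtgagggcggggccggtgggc
Slc1a4, chr11:20332710-20332813, minus strand: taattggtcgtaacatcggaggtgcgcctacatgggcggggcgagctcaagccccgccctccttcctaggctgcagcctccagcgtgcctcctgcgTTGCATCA

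The match in Asns lies 23 to 16 bases before the RefSeq start, and inside the longest GENCODE gene model, which starts further upstream. In Pycr1 it lies 103 to 96 bases before the start, and in Slc1a4 it spans the start on the opposite strand. Of the 3 genes, Asns and Slc1a4 rose in ER stress, by 1.16 and 1.31, and Pycr1 was at 0.64. No promoter was listed for Cth and Slc7a3, which changed most, or for Slc7a2, Slc7a5 and Aldh1l2.

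Proline synthesis runs from glutamate through Aldh18a1, which makes the shared precursor, and Pycr1, which reduces it to proline. Aldh18a1 had 91.1 TPM in the control library, 60.4 in oxidative stress, 73.0 in osmotic stress, 81.1 in glucose depletion, 80.4 in glutamine depletion, 129.6 in hypoxia and 221 in ER stress. It rose in ER stress by 1.27, hypoxia was second highest at 0.50, and oxidative stress was lowest at -0.59. Pycr1 ran from 24.8 TPM in oxidative stress to 47.2 TPM in ER stress and passed 2-fold nowhere. Prodh, which breaks proline down, was below the filter, at 0.489 TPM in the control and between 0.259 and 1.79 TPM elsewhere. The table lists Prodh on a pair of rows with identical values, which were counted once.

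Cth, the last enzyme of transsulfuration, which releases cysteine from cystathionine, changed more than any other member. Located on chromosome 3 from 157894248 to 157925077, it had 11.5 TPM in the control library, 8.84 in oxidative stress, 14.2 in osmotic stress, 10.8 in glucose depletion, 13.8 in glutamine depletion, 12.5 in hypoxia and 118 in ER stress. The ER stress library held 8.28 times the level of the next highest, and the log2 change was 3.25, which ranked 156 from the top among 12909 genes. The other 6 libraries lay between 8.84 and 14.2 TPM. Cbs, the enzyme before it, was below the filter, at 1.33 TPM in the control and between 0.506 and 1.60 TPM in the conditions, with a log2 change of -0.30 in ER stress. Cth thus stood far above Cbs in every library, and most so in ER stress.

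The methionine cycle gave a different order of conditions. Mat2a, which makes the methyl donor S-adenosylmethionine and lies on chromosome 6 from 72432799 to 72439558, had 61.7 TPM in the control library, 121 in oxidative stress, 35.2 in osmotic stress, 49.8 in glucose depletion, 70.0 in glutamine depletion, 28.1 in hypoxia and 71.9 in ER stress. Oxidative stress was highest and hypoxia lowest, with log2 changes of 0.96 and -1.11, of which the second passed 2-fold. Set relative to the median of all genes, which was -0.16 in oxidative stress, the first was 1.12. Mat2a stood on a pair of rows with identical values under different identifiers, only 1 of them in GENCODE M21, so its level could be shared between them, while its change is the same on both. Ahcy, which clears the product of methylation, had its highest level in the control, 65.5 TPM, and its lowest in oxidative stress, 40.4 TPM (-0.68).

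The branched-chain transaminases move the amino group of leucine, isoleucine and valine to make glutamate, Bcat1 in the cytosol and Bcat2 in mitochondria. Bcat1 had 109 TPM in the control library, 86.2 in oxidative stress, 83.6 in osmotic stress, 133 in glucose depletion, 114 in glutamine depletion, 111 in hypoxia and 358 in ER stress. Bcat2 was lower, with 30.3 TPM in the control library, 15.5 in oxidative stress, 25.4 in osmotic stress, 27.4 in glucose depletion, 19.7 in glutamine depletion, 29.5 in hypoxia and 75.5 in ER stress. Both rose in ER stress, by 1.70 and 1.29, and in the other libraries neither passed 2-fold, with Bcat2 at -0.93 in oxidative stress as the nearest. Their ratio lay between 3.30 in osmotic stress and 5.78 in glutamine depletion.

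**Figure D4:**
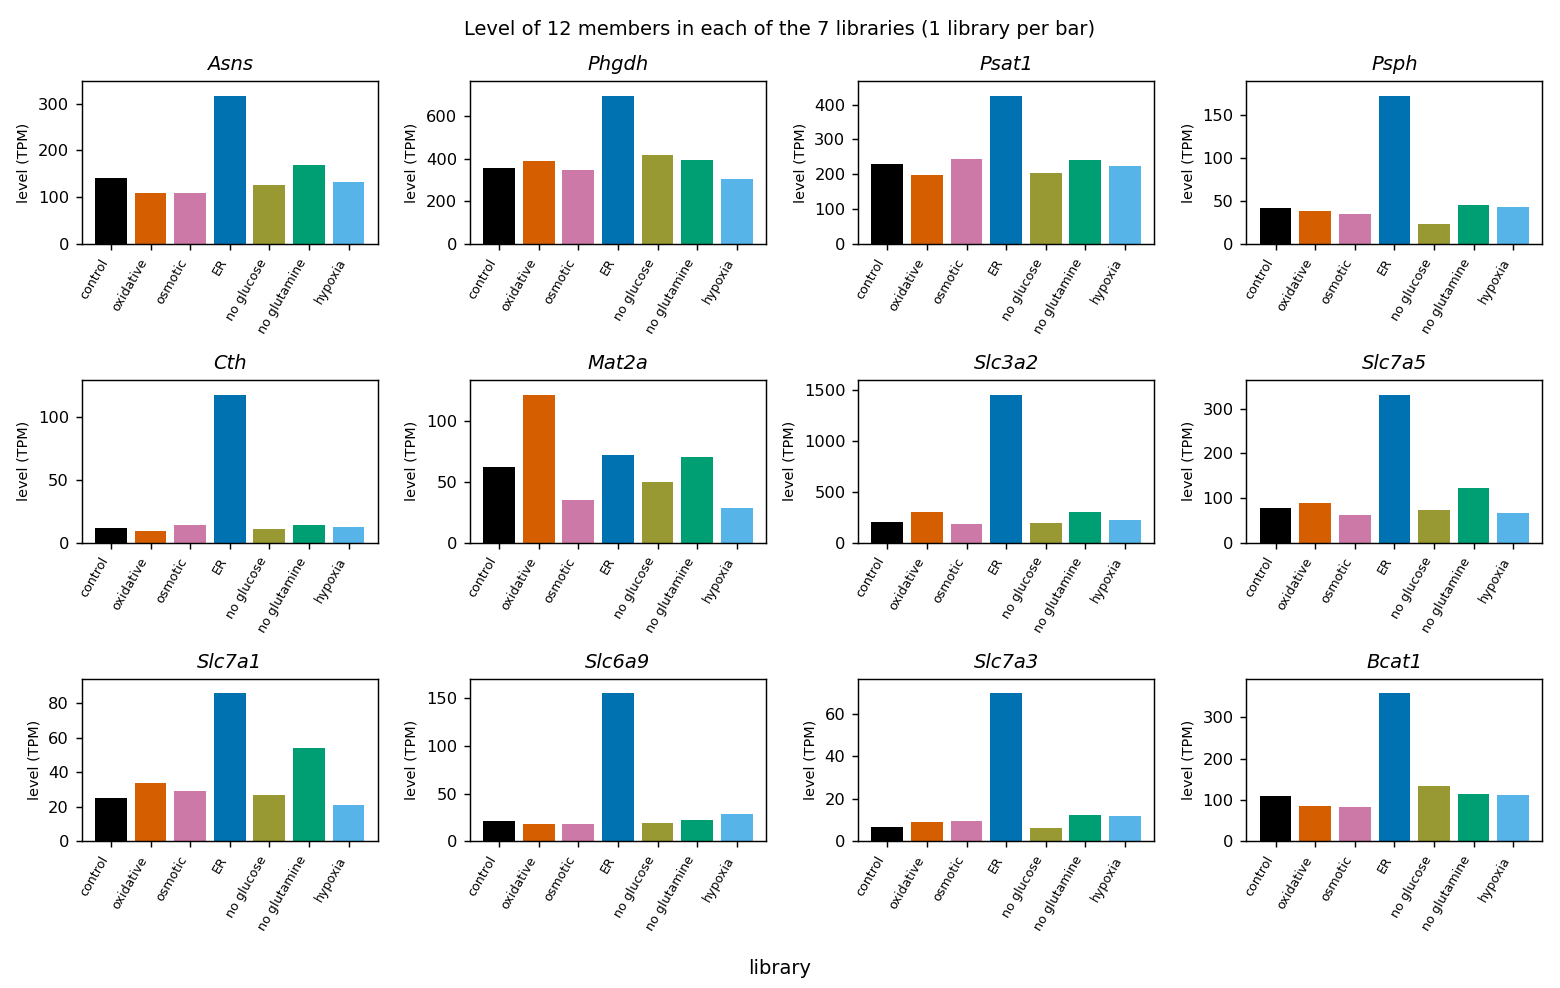
Level in TPM (vertical axis, from 0, its own scale in each panel) of 12 members in each of the 7 libraries, with 1 library per bar and no error bars. The ER stress bar is the highest in 11 panels, and in that of Mat2a oxidative stress is highest, at 121 TPM.

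Of the 6 groups, transporters added the most TPM in ER stress. Of the 13, 8 rose in ER stress, 61.5% against 8.6% of all genes, and 1 fell, 7.69% against 11.0%. Their summed level went from 495 TPM to 2342 TPM in ER stress and lay between 445 and 656 TPM in the other 5 libraries. The most abundant was Slc3a2, the heavy chain that brings several amino acid carriers to the cell surface, on chromosome 19 from 8706882 to 8723369. It had 201 TPM in the control library, 298 in oxidative stress, 184 in osmotic stress, 189 in glucose depletion, 301 in glutamine depletion, 218 in hypoxia and 1454 in ER stress. ER stress held 4.83 times the next highest level, a log2 change of 2.85, and glutamine depletion (0.58) and oxidative stress (0.56) followed without passing 2-fold.

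Slc7a5, the light chain of the leucine carrier that pairs with Slc3a2, had 76.6 TPM in the control library, 89.3 in oxidative stress, 61.2 in osmotic stress, 74.1 in glucose depletion, 123 in glutamine depletion, 65.7 in hypoxia and 332 in ER stress. It rose in ER stress by 2.10, and glutamine depletion was second with 0.68. Its partner outnumbered it in each library, by 2.44 times in glutamine depletion and by 4.38 times in ER stress. Slc7a6, another light chain of Slc3a2 that exchanges arginine for neutral amino acids, had 62.7 TPM in the control library, 41.2 in oxidative stress, 56.5 in osmotic stress, 50.9 in glucose depletion, 59.4 in glutamine depletion, 28.4 in hypoxia and 57.0 in ER stress. It was highest in the control and passed 2-fold in hypoxia alone (-1.12, or -0.98 against the median of the other 6 libraries), with -0.14 in ER stress.

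The cationic amino acid carriers Slc7a1, Slc7a2 and Slc7a3 take up arginine, lysine and ornithine without a heavy chain. Slc7a1 had 24.8 TPM in the control library, 34.01 in oxidative stress, 29.1 in osmotic stress, 27.0 in glucose depletion, 54.2 in glutamine depletion, 21.1 in hypoxia and 85.6 in ER stress. It rose in ER stress by 1.74 and was the only member past 2-fold in glutamine depletion, at 1.10, a value that became 0.99 with a pseudocount of 5 TPM and 0.93 against the median of the other 6 libraries. Slc7a3 had 6.84 TPM in the control library, 9.22 in oxidative stress, 9.38 in osmotic stress, 6.29 in glucose depletion, 12.3 in glutamine depletion, 11.9 in hypoxia and 69.5 in ER stress. Its change of 3.17 in ER stress was second to that of Cth, and glutamine depletion and hypoxia were next with 0.76 and 0.72. Slc7a2 went from 9.49 TPM to 21.5 TPM in ER stress (1.10), and with a pseudocount of 5 TPM its change was 0.87. The order of the 3 genes thus differed between libraries, since Slc7a3 was the least abundant in the control and second in ER stress.

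Slc6a9, the glycine transporter GlyT1, had 21.5 TPM in the control library, 18.4 in oxidative stress, 17.8 in osmotic stress, 18.9 in glucose depletion, 22.8 in glutamine depletion, 28.2 in hypoxia and 155 in ER stress. It rose by 2.79 in ER stress, 5.48 times the next highest library. Slc1a4, which exchanges serine, alanine and other small neutral amino acids, had 33.9 TPM in the control library, 27.4 in oxidative stress, 25.9 in osmotic stress, 27.7 in glucose depletion, 28.5 in glutamine depletion, 57.0 in hypoxia and 85.6 in ER stress. It passed 2-fold in ER stress, and hypoxia was second at 0.73. Both genes had their highest level in ER stress, as did 22 of the 32 members.

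Of the other 5 transporters, 2 passed 2-fold. Slc38a7, a lysosomal exporter of glutamine and asparagine, had 23.0 TPM in the control library, 25.9 in oxidative stress, 17.3 in osmotic stress, 12.3 in glucose depletion, 15.1 in glutamine depletion, 23.2 in hypoxia and 48.7 in ER stress. It rose in ER stress by 1.05, which became 0.94 with a pseudocount of 5 TPM, and was lowest in glucose depletion at -0.85. Slc43a2, a uniporter of large neutral amino acids, fell in ER stress from 3.26 to 0.941 TPM (-1.13), and was at -0.48 with that pseudocount. Its relative Slc43a1 was between 1.07 TPM in hypoxia and 4.89 TPM in ER stress, and its change of -0.83 in hypoxia was -1.25 with a pseudocount of 0.1 TPM. The proton-coupled carriers Slc36a1 and Slc36a4 ran from 10.2 to 20.5 TPM and from 8.99 to 14.6 TPM.

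Other genes of these pathways were read as a list of 55 companion genes chosen by textbook role, 46 of them above the filter. In ER stress 7 of the 46 rose (15.2%, against 8.6% of all genes), among them Slc7a11, Slc1a5, Slc38a1, Slc19a1 and Dld, and 5 fell (10.9%, near the 11.0% of all genes), namely Mthfs, Slc38a4, Slc6a6, Slc1a3 and Aldh4a1. The largest rise was that of Slc7a11, the cystine carrier that also pairs with Slc3a2, from 2.60 to 18.5 TPM (2.44), and it rose in oxidative stress too, to 15.7 TPM (2.22). The largest fall was that of Mthfs, a folate enzyme, from 7.48 to 1.52 TPM (-1.75). Of the 5 genes of branched-chain breakdown none passed 2-fold in ER stress, with a median of -0.35.

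Outside ER stress the shares of companions past 2-fold lay below those of all genes. Against protein-coding genes alone some lay above and others below. Of those genes 1.79% rose in oxidative stress, under the companions' 2.17%, and 7.35% fell in osmotic stress, over the companions' 2.17%. The companion shares rest on at most 2 genes each and are no result about the companions. In osmotic stress Slc38a2, a sodium-coupled carrier of small neutral amino acids, rose from 102 to 478 TPM (2.22), and Mtfmt fell. Each is 2.17%, against 3.08% of all genes up and 8.76% down. Oxidative stress had Slc7a11 up (2.17% against 3.94%). Asrgl1, an asparaginase, and Dbt, a subunit of the branched-chain dehydrogenase, were down there (4.35% against 4.85%). Glucose depletion had 0 up, where 1.83% of all genes rose, and Asrgl1 down (2.17% against 2.41%). Glutamine depletion had 0 up and the mitochondrial glutamate carrier Slc25a22 down (-1.01), 2.17% against 3.21%. Hypoxia had 0 in either direction, where 3.57% of all genes rose and 2.64% fell.

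ATF4 and textbook ATF4-responsive genes outside the list were read beside the members. This second list was also chosen with earlier results of these data known. Of these 13 genes, 8 rose in ER stress, 61.5% against 8.6% of all genes, and 0 fell, where 11.0% of all genes did. Their median was 1.23, and Atf3 (4.81) and Ddit3 (3.77) rose most. Atf4 itself went from 276 to 773 TPM (1.48). In glutamine depletion 4 of the 13 rose, 30.8% against 3.21% of all genes. These were Atf3 (2.47), Vegfa (2.34), Chac1 (1.69) and Nupr1 (1.37), and Atf4 was at 0.79. In the same library the 32 members ran from -0.86 to 1.10 with a median of 0.08, Slc7a1 was the one past 2-fold, and Slc7a3, Slc7a5 and Slc3a2 followed at 0.76, 0.68 and 0.58. In oxidative stress, applied for 3 hours, 3 rose (23.1%, against 3.94% of all genes), among them Atf3 by 4.47, where no member did. In osmotic stress 3 of the 13 rose (23.1% against 3.08%) and 4 fell (30.8% against 8.76%), with Chac1 at -2.36. The median of the members there was -0.15, beside -0.12 for all genes. In hypoxia 4 rose (30.8% against 3.57%), Stc2, Vegfa, Ddit4 and Trib3, and 0 fell, where 2.64% of all genes did. Atf4 itself was at 0.16 there and Chac1 at -0.05, and the 13 genes ran from -0.72 to 2.36 with a median of 0.61. Glucose depletion had 0 in either direction, where 1.83% of all genes rose and 2.41% fell. The factor behind these changes was not tested.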

How the data were processed

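RNA was sequenced from MEFs (poly(A)-selected, stranded, paired-end libraries of 76 bp). The authors quantified reads with kallisto (0.43.1 per the submitters' processing notes) at default settings against mouse cDNA (GRCm38, Ensembl release 90). The deposited values are TPM, added up by the authors over all transcripts that share a gene. TPM are shares of a library, so a gene also moves when others take more or less of it, and depth and counting error are unknown.

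From these values log2(TPM + 1) was computed and the control subtracted. The 2-fold rule is that of the study. With 1 library per condition no test was run, and the labels do not say whether cells came from separate cultures. The members and gene lists were chosen with earlier results of these data known. All members were accounted for, and those past 2-fold or among the 3 largest changes each way in a condition were named. Steps were checked on simulated data with changes well past 2-fold in well expressed genes. That check does not cover calls near 2-fold or weakly expressed members. Positions and gene types are from GENCODE M21 (GRCm38), which matched all 34 members, and promoters from RefSeq (GRCm38.p6). The alternatives were pseudocounts of 0.1 and 5 TPM, other expression filters, centring, a 1.5-fold rule and another reference. Values were computed with pandas 2.3.3 and numpy 2.4.6 in Python 3.11.15 and drawn with matplotlib 3.10.9.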

Additional observations from a re-analysis of the deposited data

How the results depend on the processing

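Each count of members past 2-fold was recomputed under 7 alternatives, and 65 of 84 values stayed within 1.5 times the value given. The 18 rises in ER stress were 16 with a pseudocount of 5 TPM, 22 with the 1.5-fold rule and 18 in the other 5, but the 2 falls became 1 with a pseudocount of 5 TPM and 0 with a mean of at least 10 TPM. The single fall in glucose depletion became 0 under both. With 5 TPM the single rise in glutamine depletion became 0 and the 2 rises in hypoxia became 1. Centring on the median of all genes gave 1 rise in oxidative stress, Mat2a. With the median of the other 6 libraries as the reference there was 1 rise in oxidative stress, 0 in glutamine depletion, and 1 rise and 1 fall in hypoxia. The 1.5-fold rule gave 1 rise and 5 falls in oxidative stress, 1 fall in osmotic stress, 3 falls in glucose depletion, 3 rises and 3 falls in glutamine depletion, and 5 rises and 6 falls in hypoxia. The cause of these moves was not tested. No member past 2-fold changed sign, and 801 of 816 changes of single members kept their side of the 2-fold line. Among 11305 protein-coding genes alone, 7.09% rose and 9.79% fell in ER stress, 1.93% rose and 1.02% fell in hypoxia, 0.602% fell in glucose depletion and 1.89% rose in glutamine depletion. Without replicates or depth, changes near 2-fold cannot be told from the spread between libraries.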
